A study of Daphnia magna with 40 samples.

Results

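Adult Daphnia magna that had been exposed to the antidepressant fluoxetine were set against adults that had been exposed to the industrial chemical nonylphenol, on 12 single-colour Agilent arrays of whole-animal RNA. The 12 arrays were chosen by their stage and treatment labels from the 40 arrays of the series: 4 arrays of fluoxetine at 40 µg/L (FX40), 4 of nonylphenol at 20 µg/L (NP20) and 4 of nonylphenol at 60 µg/L (NP60). No array of the acetone carrier group entered the comparison. The series asked how serotonin reuptake inhibitors act on metabolism, development and offspring number, in 10 groups of 4 arrays over 2 stages. All animals belonged to clone F, a laboratory line that multiplies without males, so the groups share a genotype. In each group the test compound was added in acetone at 0.1 ml/L, at 20 °C, so the carrier was also common to every group. Exposure began with egg-bearing females of 8 to 9 days and lasted over 3 broods, 10 to 14 days. The eggs were removed before the females were frozen. The labels give neither the number of females per sample nor how the replicate vessels were kept, so each p-value rests on array-to-array variation within a group, and part of that variation may be technical. Doses are given as labelled on each sample, whereas the text of the series names 80 ppb for fluoxetine and 30 ppb for fluvoxamine against labelled values of 40 and 10 µg/L. Which of them was used is not known here.

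Fluoxetine blocks the serotonin transporter, which returns released serotonin to the nerve ending, so the transmitter acts for longer. Crustaceans use serotonin in the control of feeding, movement and reproduction. Nonylphenol, a phenol with a long alkyl chain, arises when surfactants break down and is known in vertebrates as a weak mimic of oestrogen. The compounds are unrelated in structure, and their doses were not matched, so the values below describe these exposures side by side and not the compounds at equal strength.

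Probes are listed by ID alone, without gene names. Of the 14338 probe IDs, 0 matched the RefSeq gene table that was at hand (assembly ASM2063170v1.1). The 12 gene lists drawn up for this tissue and treatment, among them serotonin signalling, energy metabolism, yolk and moulting genes, therefore could not be matched to probes, and neither could the markers that would check the tissue. Probes are named by ID, with no gene, function or position. Levels are scaled log2 levels, that is, log2 of the processed spot intensity minus the 75th percentile of the array, so that a level of 0 equals that percentile. In whole-animal RNA, fewer cells of a type and less RNA per cell cannot be told apart.

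The 12 arrays were of similar brightness and detection in both treatments. The SD between duplicate spots ran from 0.35 to 0.57 in FX40 and from 0.30 to 0.53 in nonylphenol, and was not tested. Of the 14338 probes, 7826 were well above background on all 12 arrays and 847 on none. The log2 75th percentile of raw signal was 8.45 ± 0.34 (SD, n = 4) in FX40 and 8.25 ± 0.58 (SD, n = 8) in nonylphenol (two-sided exact permutation test, p = 0.541). The share of probes well above background was 79.1% ± 5.05 (SD, n = 4) and 76.7% ± 6.78 (SD, n = 8), with an exact permutation p of 0.505. The smallest p that 4 against 8 arrays can give is 0.00404, and with adjustment over 5 array measures no p was under 0.541. Arrays of different treatment correlated as closely as arrays of the same treatment. The median correlation was 0.906 within FX40, 0.913 within nonylphenol and 0.908 between them, and no 2 of the 40 arrays correlated above 0.974.

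Single arrays stood apart, and they bear on the results that follow. The first principal component held 23.0% of the variance and was set by NP20 B, with a score of 131.6 where the other 11 arrays lay between -40.8 and 21.5. The second held 20.6%, with FX40 B at 89.1 on one side, and NP20 G at -68.1, NP60 C at -64.9 and NP20 E at -41.4 on the other. The treatments did not separate on components 1, 2 or 3, where exact permutation p was 0.137, 0.234 and 0.335. All 4 FX40 arrays shared a slide with at least 1 nonylphenol array, so each could also be compared within its slide.

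**Figure D1:**
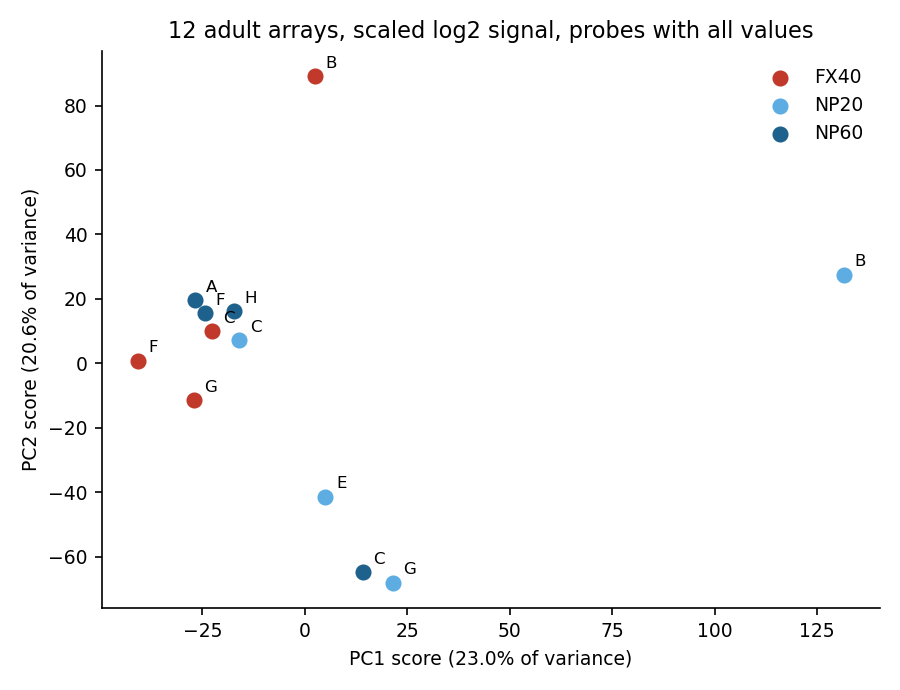
Scores of the 12 adult arrays on principal components 1 and 2 of the scaled log2 levels, over 10805 probes with all 12 values. Each point is an array, marked with its replicate letter. NP20 B lies apart on component 1 at 131.6, FX40 B on component 2 at 89.1, and the other arrays of the 3 groups intermingle.

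No probe passed an adjusted p under 0.05 between FX40 and pooled nonylphenol in limma, so 0% of the 12234 tested probes were called. The smallest adjusted p was 0.14, and 8 probes had an adjusted p under 0.2. At an unadjusted p under 0.05 there were 713 probes, 351 higher (2.87%) and 362 lower (2.96%) in FX40, together 5.83% of those tested, where 5% corresponds to 611.7 probes. Without NP20 B and FX40 B there were 1157 such probes and 1 call, a lower probe, and leaving out that pair was chosen after seeing the data. A single call, also lower, appeared without NP20 B alone and without NP60 C, and 7 appeared without FX40 G, all lower.

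The differences between treatments were mostly small beside their error. The median difference over all tested probes was 0.04 on the log2 scale, the median SE 0.36, and the 95% interval of a single difference reached a median of 0.79 to either side. The difference was under 2-fold for 91.1% of probes. It was at least 2-fold higher in FX40 for 388 probes (3.17%) and at least 2-fold lower for 700 (5.72%). At 4-fold the imbalance was larger, with 51 probes higher (0.417%) and 159 lower (1.3%). Probes of low level were less precise. In 4 classes of equal size by mean level, the median SE went from 0.49 in the dimmest to 0.29 in the brightest. The lower side held more 4-fold differences than the higher side in every class, at 39 against 6, 37 against 5, 35 against 11 and 48 against 29 probes from the dimmest to the brightest.

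Many of the 4-fold differences rested on few arrays. Of the 159 lower probes, 89 had an unadjusted p under 0.05 and 50 stayed at least 4-fold lower whichever array was left out, while 19 dropped under 2-fold without some array. Of the 51 higher probes, 29 had an unadjusted p under 0.05 and 20 stayed at least 4-fold higher whichever array was left out. For 32 of the 51, NP60 C was the array whose removal shrank the difference most. Among the 159 that array was NP60 C for 43, FX40 B for 42 and NP20 B for 28. Without NP60 C, 29 probes were at least 4-fold higher and 106 at least 4-fold lower. Without FX40 B the counts were 100 and 204, and without NP20 C 85 and 191. At 2-fold, FX40 B alone moved the higher count by over 1.5 times, from 388 to 679.

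**Figure D2:**
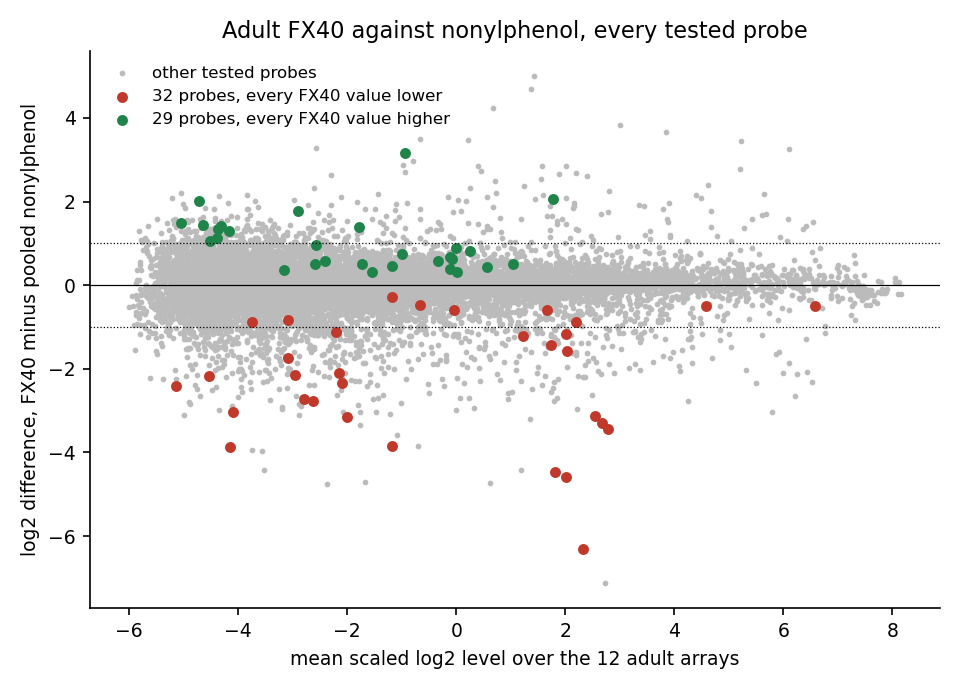
Log2 difference of FX40 minus pooled nonylphenol (vertical axis) against the mean scaled log2 level over the 12 adult arrays (horizontal axis) for the 12234 tested probes. Coloured points are the 32 probes with every FX40 value below and the 29 with every FX40 value above all 8 nonylphenol values. Dotted lines mark 2-fold, and more of the large differences lie below the lines than above them.

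For 61 probes (0.565%) the FX40 and nonylphenol values did not overlap. If the labels made no difference, a fraction of 0.00404 of probes would on average not overlap, the smallest exact permutation p given above. Of 10805 probes with all 12 values, 32 lay lower in every FX40 array than in every nonylphenol array (0.296%), and 29 lay higher (0.268%). The split depended on the scaling, with 31 lower and 55 higher after quantile normalization. It was 31 and 62 in the deposited table, there over 12235 probes with all values. With normexp it was 29 and 13, and 21 and 36 with both normexp and quantile normalization. The 32 and 29 probes were picked by the very values compared, so the figures on these adult arrays describe them and test nothing. The lower probes differed by more. Their median difference was -2.12 on the log2 scale, from -6.32 to -0.29, with 23 of 32 at 2-fold or more and 17 at 4-fold or more. The higher probes had a median difference of 0.82, from 0.32 to 3.17, with 12 of 29 at 2-fold or more and 3 at 4-fold or more. Of the lower probes 21 were well above background on all 4 FX40 arrays, and 4 were on none. The higher probes were all well above background on the 4 FX40 arrays.

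DM08009P2 and DM06929P1 had the smallest unadjusted p among the 32 lower probes. DM08009P2 was bright, and it was well above background on all 12 arrays. Its scaled log2 level in FX40 was -1.93 in array B, -0.24 in C, -2.80 in F and 0.81 in G. The 8 nonylphenol arrays ran from 1.43 over a median of 3.85 to 4.53. The FX40 arrays were all below the lowest nonylphenol array, NP20 C, with FX40 G the nearest to it. The means were -1.04 ± 1.63 (SD, n = 4) and 3.54 ± 1.01 (SD, n = 8). The difference was -4.58 (SE 0.70, 95% interval -6.11 to -3.05, limma adjusted p = 0.14), and the level in nonylphenol was 23.9-fold that in FX40. It was -4.29 against NP20 and -4.86 against NP60. Within slides it was -5.09 for FX40 B, -2.56 for FX40 G, -4.23 for FX40 F and -4.77 for FX40 C, a sign that was fixed by choosing a probe without overlap. With normexp background correction, which fits the background in place of the scanner software's own correction, the difference was -3.89 with a limma adjusted p of 0.0485. It was also called without FX40 G, at -5.20 (adjusted p = 0.0286), and with all 20 adult arrays in the fit (adjusted p = 0.0145). In 25 of 28 alternatives it stayed uncalled, with a limma adjusted p of up to 0.786, reached with slide as a fixed block.

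DM06929P1 was a dimmer probe of the same kind. Its level in FX40 was -7.55 in array B, -7.80 in C, -6.52 in F and -5.04 in G, and the nonylphenol arrays ran from -4.48 over a median of -2.70 to -1.79. Here too FX40 G lay nearest to the nonylphenol arrays. The probe was not well above background on any of the 4 FX40 arrays and was on all 8 nonylphenol arrays. By the group means its level was at least 10.2-fold lower in FX40, a bound that allows for dim signal but not for sampling error. The bound sets the nonylphenol mean against the lowest signal that passed as well above background on each FX40 array, or the probe's own signal where higher. The measured means were -6.73 ± 1.26 (SD, n = 4) and -2.85 ± 0.89 (SD, n = 8). Their difference was -3.88 (SE 0.59, 95% interval -5.16 to -2.59, limma adjusted p = 0.14). After normexp background correction the difference was -1.22. It was called without FX40 G, at -4.44 (adjusted p = 0.0286), and with all 20 adult arrays in the fit (adjusted p = 0.0275). In 25 of 27 alternatives it stayed uncalled, with a limma adjusted p of up to 0.786, reached with slide as a fixed block. Of all 14338 probes this was the 1 that was well above background on all 8 nonylphenol arrays and on no FX40 array, and 0 probes showed the opposite pattern.

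The named probes higher in FX40 differed by less. DM05009P1 was at -3.83, -3.35, -3.19 and -3.17 in FX40 B, C, F and G, and the nonylphenol arrays ran from -6.10 over a median of -5.73 to -3.96. The highest nonylphenol array, NP20 G, came close to FX40 B. It was well above background on all 4 FX40 arrays and on 1 of 8 nonylphenol arrays. The difference was 2.01 (SE 0.38, adjusted p = 0.221), and it was -0.08 after normexp correction. DM08654P1 was at -1.82, -1.87, -1.49 and -1.73 in the same order, against a range of -4.27 to -2.20 with a median of -3.53 in nonylphenol. Its FX40 values were tightly grouped, with an SD of 0.17, where the nonylphenol SD was 0.66. The difference was 1.77 (SE 0.35, adjusted p = 0.265), or 0.36 after normexp correction.

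**Figure D3:**
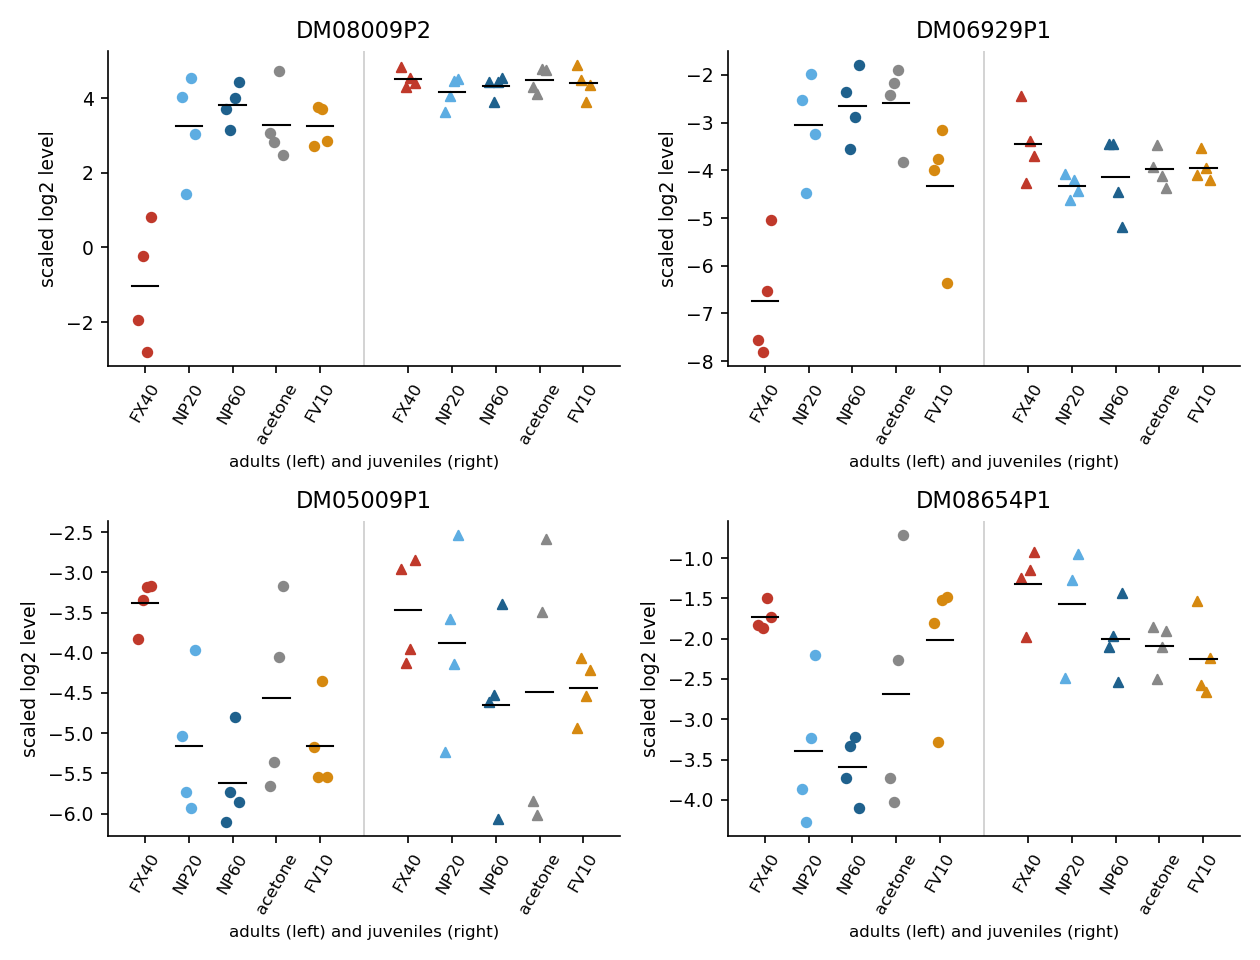
Scaled log2 levels of DM08009P2, DM06929P1, DM05009P1 and DM08654P1 in all 10 groups, adults as circles on the left and juveniles as triangles on the right of each panel. Each point is an array and each bar the mean of its 4 or fewer measured arrays. The 4 adult FX40 points lie below every adult nonylphenol point for the upper 2 probes and above them for the lower 2, and no such gap is seen in juveniles.

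The other adult groups were not used to choose the 32 lower probes, but the FX40 arrays were, so the gaps below are open to that choice and are descriptions. Relative to the nonylphenol mean of each probe, the median over the set was -2.08 in FX40 B, -1.72 in C, -2.14 in F and -1.51 in G. The 4 acetone arrays had set medians from -0.70 to 0.82, and the 4 arrays of fluvoxamine at 10 µg/L (FV10), a second serotonin reuptake inhibitor, had set medians from -0.90 to 0.18. All 4 FX40 medians lay below all of these. Probe by probe, the acetone mean was nearer to the nonylphenol mean than to the FX40 mean for 27 of 32 probes, and the FV10 mean for 28. FX40 G was the highest of the 4 FX40 arrays for 14 of the 32 probes, and FX40 B was the lowest for 15. Within slides the set medians were -1.59, -1.21, -1.66 and -2.18 on slides 2, 3, 4 and 5, whose sign the choice of probes fixed. The median of all tested probes on those slides was 0.27, -0.03, 0.10 and -0.25. FX40 was dimmer than its nonylphenol neighbour on slides 2 and 4, by -0.31 and -0.76 in log2 75th percentile, and brighter on slide 5, by 1.29. The part of brightness in these values was not tested.

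The 29 higher probes separated less from the groups outside the comparison. Their set medians were 0.97, 0.74, 1.02 and 0.82 in FX40 B, C, F and G. Acetone arrays ran from -0.17 to 0.69 and FV10 arrays from -0.18 to 0.53, so the gap to FX40 was narrow. The acetone mean was nearer to nonylphenol than to FX40 for 21 of 29 probes and the FV10 mean for 20. Within slides the set medians were 0.82, 0.68, 0.54 and 0.45, again with the sign fixed by the choice.

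The lower probes also varied together. Over the 8 adult acetone and FV10 arrays, centred within their groups, the median correlation between pairs of 29 lower probes with all values was 0.36, and it was 0.27 among 28 higher probes and 0.02 over 8973 tested probes. Over the 8 nonylphenol arrays the medians were 0.26, 0.02 and 0.03. The arrays are few and every pair of probes shares them, so these are descriptions.

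The nonylphenol doses were then taken singly, with the same 4 FX40 arrays in each comparison. Against NP20, limma called 0 of 12234 probes (0%). Its smallest adjusted p was 0.448, and 737 probes (6.02%) had an unadjusted p under 0.05. Against NP60 it called 0 (0%), with 608 (4.97%) and 0.212. Between NP60 and NP20 it called 0 of 12235 (0%), with 410 (3.35%) and 0.999. At least 4-fold differences numbered 142 higher (1.16%) and 274 lower (2.24%) against NP20, and 16 (0.131%) and 95 (0.777%) against NP60. These counts moved with single arrays. Leaving out each array in turn gave 110 to 219 higher and 266 to 318 lower against NP20, with 219 reached without NP20 C. Against NP60 it gave 14 to 69 higher and 80 to 178 lower. The higher count there was 52 without FX40 B, 35 without FX40 G, 69 without NP60 A and 39 without NP60 F or NP60 H. The lower count was 178, 149, 166 and 158 without FX40 C, FX40 F, FX40 G and NP60 H. Values that did not overlap were seen for 162 higher (1.46%) and 133 lower probes (1.2%) against NP20, and for 250 (2.2%) and 161 (1.42%) against NP60, which is 2.66% and 3.62% of the probes in both directions. With 4 against 4 arrays, values part by chance more often than with 4 against 8, so the fraction of 0.00404 does not apply here. These shares cannot be set beside the 0.565% of the pooled comparison, and no excess over chance was tested. The 32 lower probes had medians of -2.07 against NP20 and -1.80 against NP60, and the 29 higher probes had medians of 0.75 and 0.74. The choice of these probes fixed the sign against each dose.

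DM07749P3 and DM12369P1 were the probes named on the higher side against NP20. DM07749P3 was the brighter. Its level was 2.27, 2.65, 3.69 and 2.66 in FX40 B, C, F and G and at -1.27, 0.49, 0.42 and -1.44 in NP20 B, C, E and G. In NP60 it was at 2.69 in A, 0.22 in C, 2.79 in F and 2.08 in H. NP60 A, F and H thus lay with FX40, and only NP60 C lay in the NP20 range. The difference was 3.27 (SE 0.64, adjusted p = 0.448) against NP20 and 0.87 (SE 0.64) against NP60. DM12369P1 followed the same order, at -0.21 ± 0.45 in FX40, -1.72 ± 0.33 in NP20 and -0.85 ± 0.48 in NP60 (SD, n = 4 each), a difference of 1.52 (SE 0.32, adjusted p = 0.448) against NP20, or 0.58 after normexp correction.

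On the lower side against NP20, DM05954P2 was at -5.68, -5.61, -5.99 and -6.62 in FX40 and at -2.04, -3.25, -3.25 and -4.27 in NP20. NP60 lay between them at -4.41 ± 0.60 (SD, n = 4). No FX40 array was well above background, and 6 of the 8 nonylphenol arrays were. The measured level in FX40 was 4.49-fold lower than over the 8 nonylphenol arrays. The 95% interval of that log2 difference was -3.04 to -1.29. After normexp correction the log2 difference from NP20 was -1.03 in place of -2.77. DM03630P1 was at -3.99, -4.92, -4.97 and -4.58 in FX40, and NP20 B alone, at 1.00, stood far above NP20 C, E and G at -2.33, -2.16 and -1.69. The difference from NP20 was -3.32 (SE 0.61, adjusted p = 0.448), and -2.76 without NP20 B and FX40 B, where the adjusted p was 0.0189. It was -1.77 after normexp correction, and 25 of 26 alternatives left the probe uncalled.

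On the lower side against NP60, both named probes were bright in nonylphenol. DM02425P1 was at -0.31, 0.21, 0.14 and 1.81 in FX40 B, C, F and G and at 3.88, 2.69, 4.26 and 5.08 in NP60 A, C, F and H. NP20 lay with NP60, at 3.19 ± 0.54 (SD, n = 4). The difference was -3.51 (SE 0.55, adjusted p = 0.212) against NP60 and -2.72 (SE 0.55, adjusted p = 0.448) against NP20. DM09557P1 was at -1.47, -0.18, -3.1 and 1.24 in FX40 and at 4.02, 3.1, 4.09 and 4.65 in NP60. Again FX40 G was the highest FX40 array. Its difference was -4.85 (SE 0.81, adjusted p = 0.265), and NP20, with 3 measured arrays, lay at 3.44 ± 0.94 (SD, n = 3).

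Both probes named as higher in FX40 than in NP60 were of low level. DM06050P2 was at -2.42, -2.14, -2.20 and -2.24 in FX40 and at -4.47, -3.93, -3.77 and -3.62 in NP60. NP20 overlapped FX40, from -2.91 to -1.96. The difference was 1.70 (SE 0.27, adjusted p = 0.212) against NP60, 0.20 (SE 0.27) against NP20, and 0.49 against NP60 after normexp correction. DM13601P4 differed by 2.18 (SE 0.43, limma adjusted p = 0.285) from NP60 and by 0.59 (SE 0.43) from NP20, and it was well above background on all 4 FX40, 3 NP20 and 1 NP60 arrays. With normexp correction its difference from NP60 was 0.26.

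Between the nonylphenol groups, where limma called 0 probes, values did not overlap for 67 probes higher (0.596%) and 79 lower (0.703%) in NP60, together 1.3%. This too is 4 against 4 arrays, so the share is no measure of a dose difference. At least 4-fold higher in NP60 were 92 probes (0.752%), and 135 (1.1%) were at least 4-fold lower. The counts were 197 and 206 without NP20 C, 163 and 226 without NP60 C, 143 and 156 without NP20 E, and 53 and 128 without NP20 B. DM13799P2 was at -2.92 ± 0.14 in NP60 and -4.24 ± 0.53 in NP20 (SD, n = 4 each), a difference of 1.32 (SE 0.31, adjusted p = 0.999) that became -0.01 after normexp correction. DM11159P1 was higher in NP60 by 1.07 (SE 0.28, adjusted p = 0.999), or 0.50 after normexp correction. DM08969P2 was lower by 2.12, being at -5.13 ± 0.91 in NP60 and -3.02 ± 0.64 in NP20 (SD, n = 4 each), where 1 NP60 array and all 4 NP20 arrays were well above background. DM06169P4 was at -5.48 ± 0.65 and -3.84 ± 0.43 (SD, n = 4 each). With normexp correction these differences became -0.88 and -0.51. FX40 lay with NP60 for DM08969P2, at -5.24, and nearer to NP20 for DM06169P4, at -3.47.

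Juveniles exposed to the same compounds and doses offered a second look with other animals and other arrays. They were under 1 day old at the start, were exposed for 3 days and were pooled by vessel, per the labels. In 12 juvenile arrays limma called 0 of 12504 probes (0%). Its smallest adjusted p was 0.801, and 703 probes (5.62%) had an unadjusted p under 0.05. Of the 32 adult lower probes 31 were tested in juveniles, and 8 lay lower in FX40 there, against 42.3% of all tested juvenile probes. Their median juvenile difference was 0.13, and that of all probes 0.07. The set medians of the 4 juvenile FX40 arrays, from 0.07 to 0.30, lay within the range of the 8 juvenile nonylphenol arrays, from -0.19 to 0.25, except for FX40 A. Of the 29 adult higher probes 28 were tested and 16 lay higher in FX40 juveniles, against 57.7% of all probes.

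The difference between stages was itself tested, as adult minus juvenile difference in a fit of 24 arrays. Age at the start and length of exposure changed with stage, and pooling may have, so these cannot be told apart here. Of 13094 probes 2 passed an adjusted p under 0.05 in limma (0.0153%), and 728 had an unadjusted p under 0.05 (5.56%). Both called probes were already named. The fit takes the same spread for a probe in both stages. The SD of DM08009P2 was 1.63 in adult FX40 and 0.22 in juvenile FX40, and that of DM06929P1 was 1.26 and 0.77. Neither adult difference was called alone (limma adjusted p = 0.14 for each). DM08009P2 averaged 4.52 ± 0.22 (SD, n = 4) in juvenile FX40 and 4.24 ± 0.34 (SD, n = 8) in juvenile nonylphenol, a juvenile difference of 0.28, and the stage difference was -4.86 (SE 0.76, adjusted p = 0.0178). DM06929P1 averaged -3.44 ± 0.77 (SD, n = 4) and -4.24 ± 0.58 (SD, n = 8), a juvenile difference of 0.79, and the stage difference was -4.67 (SE 0.73, adjusted p = 0.0178). Of the 32 lower probes 27 had an unadjusted p under 0.05 for the stage difference, but their adult values, which chose them, enter that test. Neither probe was called with normexp correction, where the stage differences were -4.34 and -1.40, with array brightness as a covariate, or without juvenile FX40 A, C or D.

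Across all probes the adult and juvenile differences were related on the lower side. Of 666 probes at least 2-fold lower in adult FX40 and tested in both stages, 149 (22.4%) were at least 2-fold lower in juvenile FX40 too, whereas 2.71% of all 11937 probes were at least 2-fold lower in juveniles. At least 2-fold higher in juveniles were 19 of the 666. Of 383 probes at least 2-fold higher in adults 27 (7.05%) were so in juveniles, against 1.99% of all. The probes past 2-fold in both stages were 1.25% of all on the lower side and 0.226% on the higher. Over the 11937 probes Pearson's correlation of the differences was 0.244 and Spearman's 0.087, a description across probes that are not independent. The stages share no array but lie on the same 7 slides.

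The 149 probes had high values in some nonylphenol arrays of each stage, while the other nonylphenol arrays lay nearer to FX40 than to those. They were picked from these values after seeing the data, so no test applies. Relative to the nonylphenol mean of the stage, their median in adults was 2.28 in NP20 G, 1.45 in NP60 C, 1.29 in NP20 B and 1.04 in NP20 E. In the other nonylphenol arrays it was -0.92 in NP20 C, -1.60 in NP60 F and -2.08 in both NP60 A and NP60 H. The 4 FX40 arrays, from -2.32 to -1.61, lay with that second set, as did acetone, from -2.0 to -1.30, and FV10, from -1.77 to -1.12. Within the second set NP20 C lay above all of these. In juveniles NP60 B, NP20 A and NP20 D were high, at 3.28, 2.34 and 2.20, and the 4 FX40 arrays, from -2.36 to -1.67, lay with the other 5 nonylphenol arrays, from -1.97 to -1.27. The juvenile FV10 and acetone arrays, which had no part in choosing the probes, spread from -1.66 to 2.22 and from -1.84 to 0.02. The high adult arrays lay on 4 different slides, each with other adult arrays that were low. Only 6 of the 149 had an unadjusted p under 0.05 in both stages, and 2 belonged to the 32 lower probes. Over the 8 juvenile acetone and FV10 arrays, 131 of the 149 with all values had a median pairwise correlation of 0.60, against 0.04 over 7291 tested probes, and over the adult acetone and FV10 arrays it was 0.07 for 127 of them, against 0.02.

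**Figure D4:**
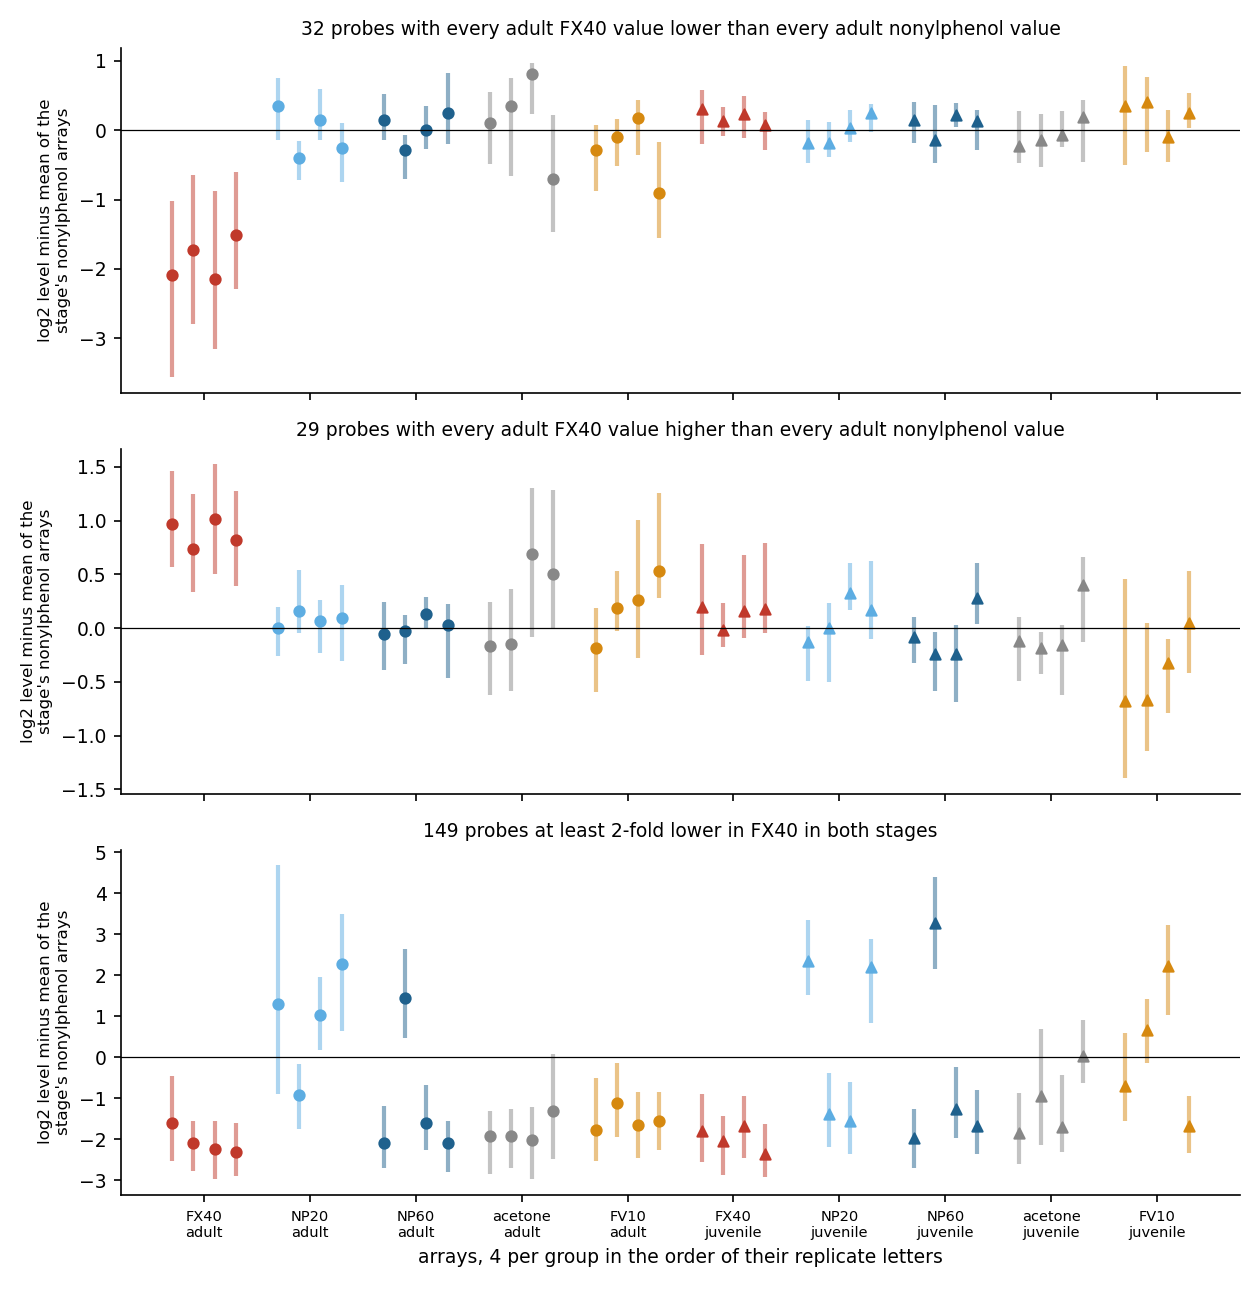
Median (points) and middle range from the lower to the upper quartile (bars) over 3 sets of probes in each of the 40 arrays, as scaled log2 level minus the mean of the stage's 8 nonylphenol arrays. The 32 lower probes have set medians of -1.51 or less in the 4 adult FX40 arrays and of -0.90 or more in every other array. The 149 probes are high in some nonylphenol arrays of each stage and in juvenile FV10 C, at 2.22.

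**Figure D5:**
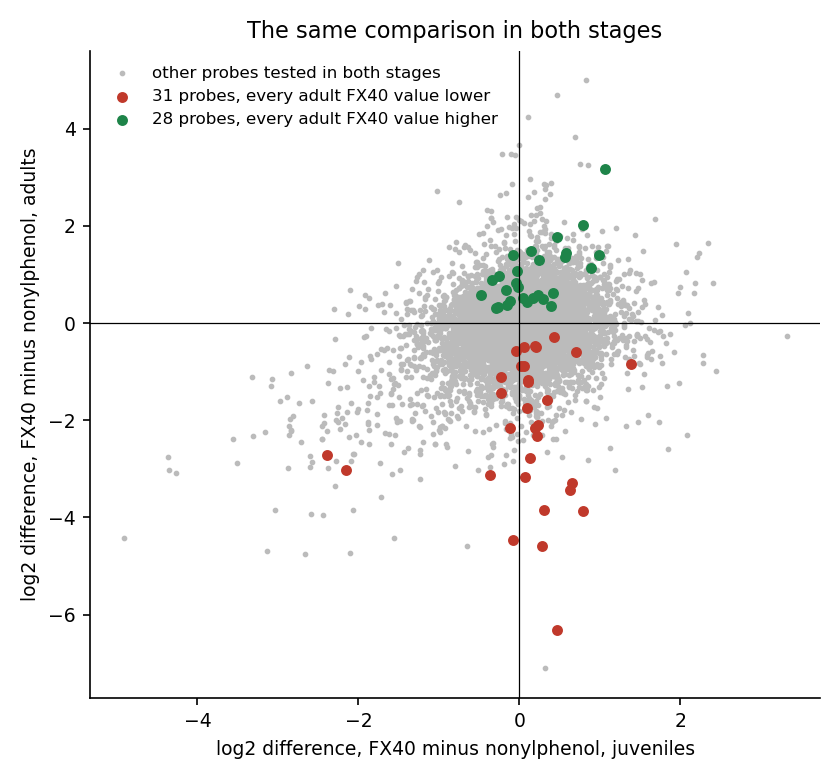
Log2 difference of FX40 minus nonylphenol in adults (vertical axis) against that in juveniles (horizontal axis) for the 11937 probes tested in both stages, each point a probe. Coloured points are the probes whose adult values did not overlap. The strongest adult differences among the 32 lower probes sit near 0 in juveniles, and a separate scatter of probes is low in both stages.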

How the data were processed

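RNA of whole Daphnia magna was hybridised to single-colour Agilent arrays. Per the file headers, Agilent Feature Extraction 10.7.3.1 read the scans, and each deposited file holds linear spot intensity, as median signals of spot and background and as a processed signal after background subtraction and spatial detrending. The deposited table of the whole series is on a log2 scale. Compared array by array with the scanner output, it tracked quantile-normalized log2 signals, with the probe's stage median subtracted, at correlations of at least 0.997 per array. Other steps behind it are unknown.

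Values were log2 processed intensity minus the array's 75th percentile. Controls and outlier spots were dropped, saturated spots kept, and duplicate spots averaged. The 3 adult groups were fitted together in limma 3.58.1 (R 4.3.3; lmFit, eBayes) over probes that stood well above background on 4 or more arrays, and p-values were adjusted over all of them by Benjamini-Hochberg, with a threshold of 0.05. Missing values were dropped per probe. The fit was tested on simulated data. The number of arrays limits the precision. The main alternatives were normexp (offset 50, on median spot signals), quantile normalization, the deposited table, other filters, slide, brightness or replicate letter as terms, and each array left out.

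Named probes were, per comparison, up to 2 higher and 2 lower with the smallest unadjusted p among those with non-overlapping groups, passing over any already named, since none was called. The arrays compared, lists and rules were chosen with earlier results of these data known.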

Additional observations from a re-analysis of the deposited data

Results flagged for a closer look

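The second principal component score of adult NP60 C was -64.88, far from the scores of NP60 A, F and H, which lay between 15.5 and 19.5. The gap was 0.953 of the range of the group, above Dixon's critical value for 4 arrays. Of 62 groups of values examined in this way this was the one that passed, where chance flags about 1 in 20.

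The difference between FX40 and nonylphenol was not the same in adults and juveniles for 2 probes, by the test of the difference itself. Stage cannot be told apart from age at the start and length of exposure. For DM06929P1 the adult minus juvenile difference was -4.67 and for DM08009P2 it was -4.86, each with a limma adjusted p of 0.0178. FX40 was lower in adults on every array for both probes. In juveniles FX40 and nonylphenol values overlapped for both. Neither probe was called with normexp correction, with array brightness as a covariate, or without juvenile FX40 A, C or D.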

How the results depend on the processing

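The comparison of FX40 with pooled nonylphenol had 0 calls, but 4 with normexp, 5 with all 20 adult arrays in the fit and 1 without NP20 B and FX40 B, all lower in FX40. Leaving out each array gave 0 to 7. Across the alternatives, 461 to 1437 probes had an unadjusted p under 0.05. The 461 were out of only 7825 tested probes, those well above background on all 12 arrays. The 1437 were out of 12234, with arrays weighted in the fit. FX40 against NP20 had 1 call without NP20 B and FX40 B and 0 to 1 without single arrays. FX40 against NP60 had 3 with all 20 arrays, 1 without NP20 B and FX40 B, and 0 to 4 without single arrays, the 4 without FX40 G. NP60 against NP20 had 0 to 1, and juveniles 0 to 0. The 2 calls for the stage difference became 0 with normexp, 1 after quantile normalization and 0 when array brightness was a covariate. They became 0 to 7 without single arrays. With slide as a fixed block DM06929P1 had an adjusted p of 0.123. The 32 lower probes without overlap became 21 with normexp and quantile normalization, 21 among probes well above background on all 12 arrays and 188 without NP20 B and FX40 B, and 34 to 130 without single arrays. The 29 higher ones became 13 with normexp, 55 with quantile normalization, 62 in the deposited table, 19 among probes well above background on all 12 arrays and 184 without NP20 B and FX40 B, and 34 to 146 without single arrays. Fewer arrays raise such counts by construction, and fewer probes lower them. The setting of probes well above background on all 12 arrays counted over 6821 probes with all values, in place of 10805. For the other settings the cause was not tested. With normexp the direction turned, to -0.083 for DM05009P1 and -0.0084 for DM13799P2. Replicate letters are not stated to pair the arrays. Correlations of same-lettered deviations ran from -0.23 to 0.23, too few values to decide whether the letters mark pairs. A replicate block gave 0 calls in the 4 adult comparisons, with 798 probes at an unadjusted p under 0.05 in the pooled one. Of 485 values of the 16 named probes under alternatives, 460 kept direction and side of the threshold, 9 passed it, 14 no longer did and 2 reversed.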
